A study of Mus musculus with 5 samples.

Results

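The genes described here are 31 genes of sterol synthesis and lipogenesis, out of the 22869 gene symbols in the count table of this study. They were listed by symbol, and for each symbol the transcript row with the highest mean count was used. The list holds 7 genes of the mevalonate pathway, 10 genes that turn farnesyl diphosphate into cholesterol, and 5 genes of sterol sensing and sterol transport. It also holds 4 fatty acid desaturases, 2 elongases and 3 genes of fatty acid synthesis. The list was drawn up with the difference between mutants and controls already known, so the members' differences below are a description, without a test of their own. The study sequenced RNA from intervillus cells of the proximal jejunum, cut out by laser capture from fixed intestines of mice at postnatal day 0. The intervillus zone lies between the villi and holds the dividing progenitors of the newborn gut epithelium. The 3 control libraries (controls 1, 2 and 3) carried 1 floxed and 1 wild-type allele of Dnmt1 (Dnmt1 L/+), the gene of the maintenance DNA methyltransferase, and their label names no Cre. The 2 mutant libraries (mutants 4 and 6) carried 2 floxed alleles and a Cre driven by the Villin promoter (Dnmt1 L/L; VillinCre), which is active in gut epithelium. The captured areas also differed by design, since Ki67-positive areas were taken from the littermate controls and Ki67-negative areas from the mutants, so that genotype and proliferation state cannot be told apart. The labels do not tie libraries to single animals, so the errors and p-values below measure the spread between libraries.

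Cholesterol is built from acetyl-CoA through mevalonate, isoprenoid diphosphates, squalene and a series of sterol rings. When sterols are scarce in the endoplasmic reticulum membrane, SCAP carries the precursors of the SREBP transcription factors to the Golgi, where proteases release the active factors, and INSIG proteins hold SCAP back when sterols are plentiful. SREBP2, the product of Srebf2, acts mainly on genes of cholesterol synthesis and uptake, and SREBP1, the product of Srebf1, mainly on genes that make, desaturate and elongate fatty acids. In the small intestine, cells of the crypt, or of the intervillus zone before crypts form, make much of their own cholesterol, whereas enterocytes on the villus also take it up from the diet.

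Total counts, with 1 row per gene, ranged from 10530200 to 13356901 in the controls and from 8730268 to 10260760 in the mutants. Dnmt1 itself had 2240, 2163 and 1351 counts in the controls against 427 and 525 counts in the mutants, a log2 fold change of -1.56 ± 0.16. Fold changes are mutant over control from edgeR, with the standard error after the sign ±, and CPM are counts per library size with TMM factors. Values always come in the order controls 1, 2, 3 and mutants 4, 6. Mki67, the gene of the antigen used to choose the areas, stood at 773 to 1022 CPM in the controls and 506 to 511 CPM in the mutants. The groups also differed in sex-linked transcripts: Xist was at 2.96 to 4.26 CPM in the controls and at 639 and 901 CPM in the mutants. A sum over 4 Y-linked genes gave 2710 to 3160 counts per control and 3 to 4 per mutant. Of the marker lists, 10 epithelial genes summed to 4156 to 4391 CPM in the controls and 4027 to 4171 CPM in the mutants, with 1 called higher and 1 lower. Both mutants lay below all controls in 6 of these 10 and above in 1, and the median log2 fold change was -0.23. Over all genes tested, 21.8% lay below and 21.7% above. The 13 absorptive enterocyte markers summed to 21980 to 35130 CPM against 44440 to 45660 CPM, with 6 called higher. The 10 mesenchyme and smooth muscle markers summed to 1158 to 1264 CPM against 1776 to 1904 CPM, with 6 called higher. In all 10 of them both mutants lay above all controls, and their median log2 fold change was 0.62. Sums were also higher in both mutants for 7 immune markers (181 to 188 against 301 to 348 CPM) and for 7 neuron and glia markers (21.1 to 31.7 against 51.6 to 54.4 CPM), with 1 gene of each called higher. Much of the immune difference came from the called gene, Csf1r, at 61.1, 70.1 and 41.4 CPM against 175 and 160 CPM. The groups of 2 immune markers overlapped. Sums were likewise higher in both mutants for 7 endothelial markers (142 to 172 against 181 to 198 CPM) and for 7 adipocyte markers (128 to 188 against 203 to 206 CPM), and Adipoq had no count in any library. In each of these lists edgeR called 0 genes and gave 1 higher at an unadjusted p under 0.05, and DESeq2 called 1 adipocyte marker higher. The 5 erythroid markers summed to 29.7 to 35.5 against 36.7 to 37.2 CPM, with 1 called lower. The part of these other cells in the members' differences was not tested, and in such captured tissue fewer cells of a type and less RNA per cell cannot be told apart.

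Before the fold changes, the deposited FPKM values, a measure per transcript length, are used to order the members by level. How they were made from the counts is not stated, and they are not the same counts scaled by length. Mvk, for example, had 3.24 FPKM at 4.85 CPM in control 1 but 1.22 FPKM at 4.16 CPM in mutant 4. The order is therefore that of the FPKM values only. Fads2, the delta-6 desaturase, stood highest among the members in the controls at a mean of 57.0 FPKM, followed by the elongase Elovl6 at 31.9 FPKM, Fads1 at 22.7 FPKM, Nsdhl at 21.7 FPKM and Acat2 at 17.4 FPKM. Lowest were Mvk at 2.86 FPKM, Acaca at 1.64 FPKM, Scd1 at 0.90 FPKM and Idi1 at 0.66 FPKM. Hmgcs1, the cytosolic HMG-CoA synthase, had 3, 1 and 0 counts in the controls against 0 and 1 in the mutants. These are too few to be tested, and its level cannot be judged from the row in this table. The spread among the controls was like that of other genes: the highest control was a median of 1.30 times the lowest over the 30 tested members, and also 1.30 times over 13571 genes with a mean of at least 1 CPM in the controls. At the extremes, Stard4 varied by 1.86% (coefficient of variation) among the controls and Scd2 by 98.8%.

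**Figure D1:**
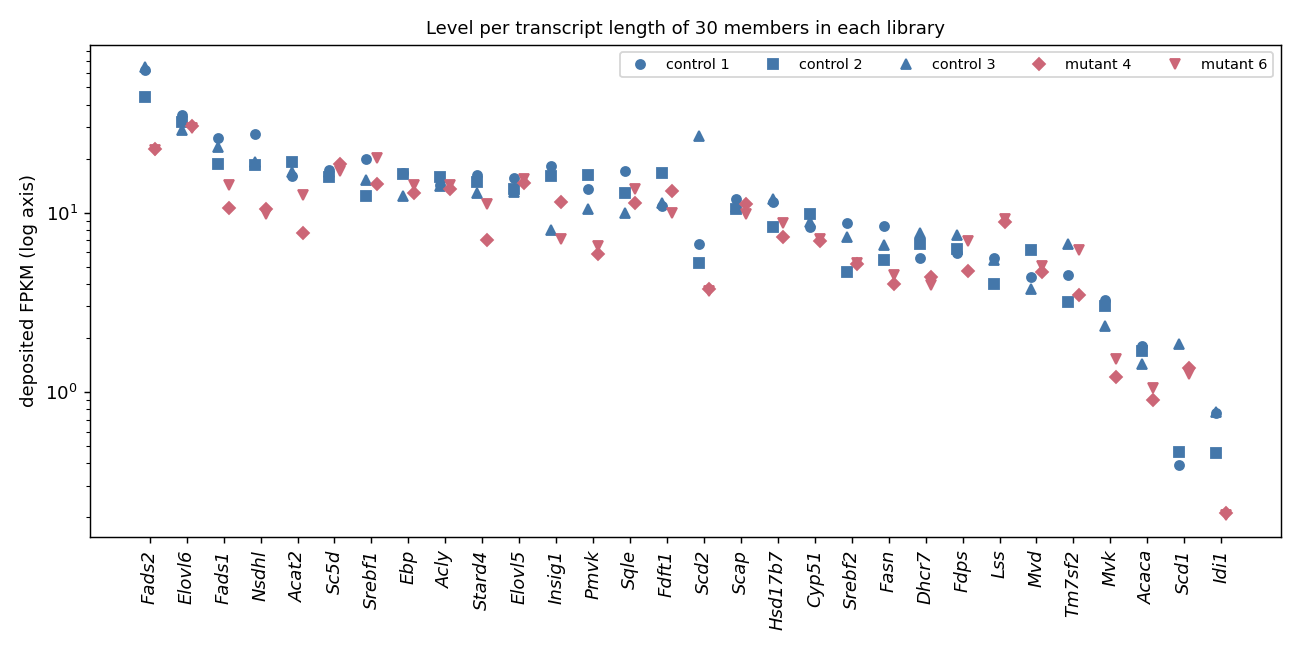
Deposited FPKM (log axis) of the 30 tested members in each library, ordered by the control mean; blue symbols are the 3 controls and red symbols the 2 mutants. Fads2 is highest and Idi1 lowest, and the control 3 triangle stands far above the other controls for Scd2 and Scd1.

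Of the 30 members tested, 8 were called lower in the mutants (edgeR quasi-likelihood test, Benjamini-Hochberg adjusted p under 0.05 over all rows) and 0 higher, where 4.17% of the 14572 genes tested were called lower and 6.11% higher. The members called lower were Acat2, Pmvk, Nsdhl, Stard4, Fads1, Fads2, Acaca and Fasn. Both mutants lay below all controls in 15 members, against 21.8% of all genes, and above all controls in 1 member, Lss, against 21.7% of all genes. The median log2 fold change was -0.25 over the 30 members and -0.0072 over all genes tested, and 25 of the 30 were negative. Because the members were chosen on this contrast, nothing is read from these shares. At an unadjusted p under 0.05, edgeR gave 12 members lower and 1 higher, Lss, and neither DESeq2 nor limma-voom called a member higher. Without control 3, Scd1 was called higher. The lower calls numbered 3 without mutant 4 and 5 without mutant 6, and 12 with no filter on low counts. In limma on the log2 scale of the deposited FPKM, they numbered 0 with a pseudocount of 1, 1 (Fads2) with a pseudocount of 0.1, and 3 (Pmvk, Nsdhl and Fads2) among genes with a mean of at least 1 FPKM.

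**Figure D2:**
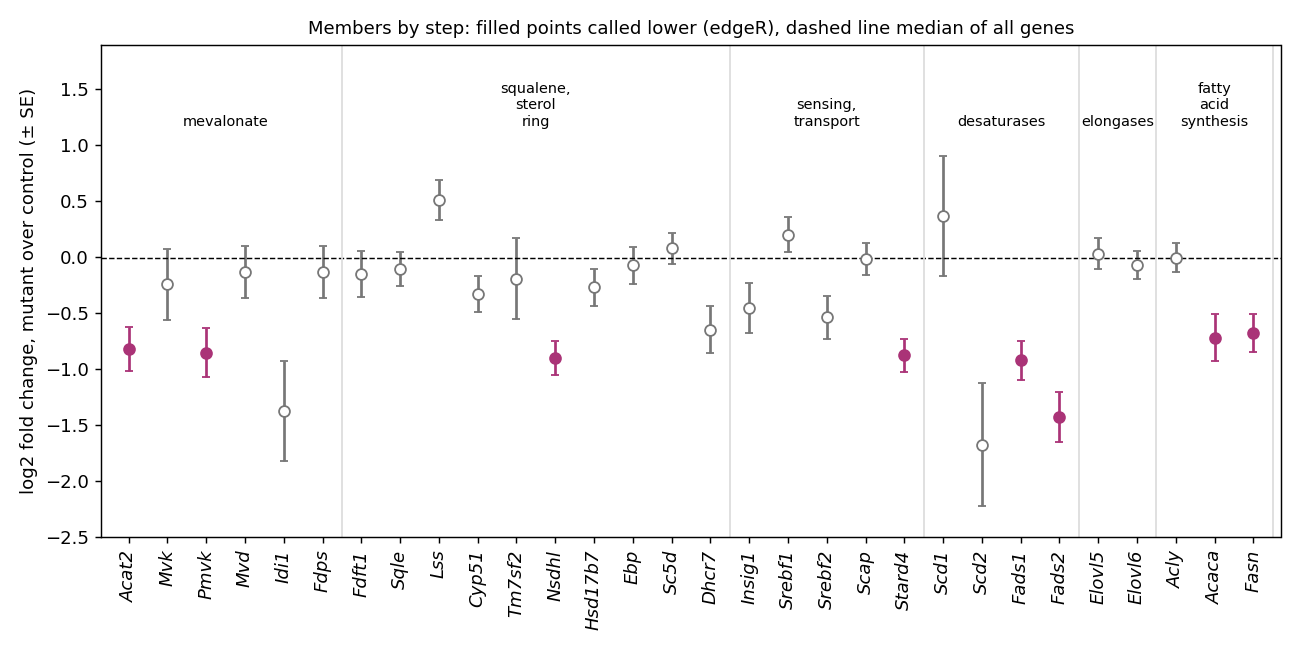
Log2 fold change, mutant over control, of the 30 tested members by step of the pathway, with the standard error from edgeR; filled points are the 8 members called lower and the dashed line is the median of all genes tested. Called members occur in every group but the elongases, and Idi1, Scd1 and Scd2 have the widest bars.

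In the mevalonate pathway, 2 of the 6 tested members were called lower, both mutants lay below all controls in 4, and the median log2 fold change was -0.53. Acat2, which condenses acetyl-CoA to acetoacetyl-CoA at the entry of the pathway, stood at 33.3, 46.5 and 41.2 CPM in the controls and 19.1 and 26.5 CPM in the mutants. Its groups did not overlap, and its log2 fold change of -0.82 ± 0.19 was no longer called without mutant 4 (-0.61). Acat2 has a close copy in the mouse genome, Acat3, and the sources used here do not say how reads shared between copies were counted. Pmvk, phosphomevalonate kinase, had 15.4, 16.0 and 18.5 CPM in the controls and 10.3 and 8.18 CPM in the mutants. The Pmvk groups were separate, at a log2 fold change of -0.85 ± 0.22, which ranged from -1.02 to -0.70 with 1 library left out and was called in only 1 of those 5 cases, without control 2. Idi1, which isomerizes isopentenyl diphosphate to the form that primes chain growth, was low in every library, with 3.19, 2.60 and 3.87 CPM in the controls and 1.24 and 1.24 CPM in the mutants. Its log2 fold change was the largest in size of the pathway at -1.37 ± 0.44, with both mutants below all controls, but it was called only when no filter on low counts was used. Mvk, mevalonate kinase, had 4.85, 4.91 and 4.30 CPM in the controls and 4.16 and 3.78 CPM in the mutants, so the mutants were below the controls by less than the error of the fold change (-0.24 ± 0.32). The deposited FPKM of Mvk differed more, with 3.24, 3.01 and 2.34 FPKM in the controls and 1.22 and 1.53 FPKM in the mutants, a log2 fold change of -0.70 on the log2(FPKM + 1) scale. The remaining steps overlapped between the groups: Mvd, mevalonate diphosphate decarboxylase, had a log2 fold change of -0.13 ± 0.23, and Fdps, farnesyl diphosphate synthase, one of -0.13 ± 0.23.

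From farnesyl diphosphate to cholesterol, 1 of the 10 members, Nsdhl, was called lower, and the median log2 fold change was -0.17. Nsdhl is an X-linked gene whose product takes part in removing the methyl groups at carbon 4 of the sterol ring. It had 55.3, 46.3 and 49.6 CPM in the controls and 27.0 and 26.9 CPM in the mutants, so the mutants were nearly equal and both were far below the lowest control. Its log2 fold change of -0.90 ± 0.15 lay between -0.95 and -0.83 with any 1 library left out and was called in each of those 5 cases. Hsd17b7, which acts at the same demethylation as a ketoreductase, overlapped between the groups at -0.27 ± 0.17. Ebp, the sterol isomerase that shifts the ring double bond, is also X-linked, and it had 26.2, 31.4 and 26.3 CPM in the controls and 27.3 and 26.0 CPM in the mutants. The Ebp groups overlapped at a log2 fold change of -0.07 ± 0.17, so of the pair of X-linked members, in libraries that differ in sex-linked transcripts, Nsdhl was called and Ebp was not. Dhcr7, the reductase of the last step to cholesterol, had 17.1, 20.4 and 25.1 CPM in the controls and 14.1 and 12.6 CPM in the mutants. Both mutants lay below all controls for Dhcr7, and its log2 fold change of -0.65 ± 0.21 was called only with no filter on low counts. Cyp51, the lanosterol demethylase, had 38.1, 50.01 and 46.8 CPM in the controls and 37.2 and 34.3 CPM in the mutants. Its groups were separate as well, at -0.33 ± 0.16, and it was not called. Lss, the cyclase that folds squalene epoxide into lanosterol, was the only member with both mutants above all controls. It stood at 16.7, 15.7 and 17.7 CPM in the controls and 23.1 and 24.5 CPM in the mutants, a log2 fold change of 0.51 ± 0.18 that ranged from 0.46 to 0.55 with 1 library left out and was not called. The groups overlapped for the squalene synthase Fdft1 (-0.15 ± 0.21), the squalene epoxidase Sqle (-0.10 ± 0.15), the sterol reductase Tm7sf2 (-0.19 ± 0.36) and the desaturase Sc5d (0.08 ± 0.14), all as log2 fold changes. Fdft1 turned in direction with the library left out, from -0.53 to 0.15. Sqle, which adds the oxygen to squalene, was at nearly the same level throughout, with 42.6, 36.5 and 37.3 CPM in the controls and 34.1 and 38.2 CPM in the mutants.

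Among the 5 genes of sterol sensing and transport, 1 was called lower and the median log2 fold change was -0.45. Stard4, a soluble protein that carries cholesterol between membranes and is itself a target of SREBP2, had 48.3, 47.2 and 49.0 CPM in the controls and 24.4 and 28.0 CPM in the mutants. The controls differed by less than 2 CPM, the mutants lay well below them, and the log2 fold change of -0.88 ± 0.15 was called with any 1 library left out (-0.98 to -0.78). Srebf2 had 43.8, 28.4 and 39.4 CPM in the controls and 27.4 and 24.0 CPM in the mutants, with both mutants below all controls by a margin of about 1 CPM to the lowest, control 2. The log2 fold change of Srebf2 was -0.53 ± 0.19 and was not called, and it was called with no filter on low counts and, at -0.68, without control 2. Srebf1 overlapped between the groups, with 75.2, 58.4 and 73.4 CPM in the controls and 69.4 and 89.1 CPM in the mutants and a log2 fold change of 0.20 ± 0.16. Scap, the sterol-sensing escort of both factors, was level across the libraries at 48.2, 46.0 and 52.4 CPM in the controls and 49.9 and 46.7 CPM in the mutants, with a log2 fold change of -0.02 ± 0.14. Insig1, which retains SCAP and is itself switched on by SREBPs, had 48.7, 48.2 and 29.0 CPM in the controls and 36.1 and 25.4 CPM in the mutants. Control 3 was the low control for Insig1 and placed the groups in overlap at -0.45 ± 0.23, and without it the log2 fold change was -0.66 and called.

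The desaturases held the largest fold changes among the members (Scd2 and Fads2) and also the least even controls, with 2 of 4 called lower and a median log2 fold change of -1.17, which was -0.62 without control 3. Fads2, the first and slowest step in making long polyunsaturated fatty acids, had 85.1, 64.5 and 118 CPM in the controls and 37.2 and 29.2 CPM in the mutants. Every control was above both mutants, and the log2 fold change of -1.43 ± 0.22 was called with any 1 library left out (-1.61 to -1.18). Fads1, the delta-5 desaturase that acts later in the same route and lies beside Fads2, had 85.2, 71.4 and 102 CPM in the controls and 39.7 and 51.3 CPM in the mutants. The Fads1 groups were separate too, at a log2 fold change of -0.92 ± 0.17, which was -0.75 and not called without mutant 4. Scd2, a stearoyl-CoA desaturase that makes monounsaturated fatty acids, had 33.1, 32.7 and 164 CPM in the controls and 24.5 and 23.3 CPM in the mutants. Control 3 was 4.95 times the highest other control, the second largest such ratio among 9319 genes with a mean of at least 10 CPM in the controls, where the median ratio was 0.929. The fitted log2 fold change of Scd2 was -1.67 ± 0.55 and was called only with no filter on low counts or without control 1 or 2. It was -0.46 ± 0.17 without control 3, -2.04 without control 1 and -2.02 without control 2. Scd1, the copy of this enzyme that dominates in liver and fat, had 1.82, 3.43 and 11.2 CPM in the controls and 7.43 and 6.56 CPM in the mutants. In control 3 it was 3.26 times the highest other control, so that the mutants lay inside the range of the controls at 0.37 ± 0.54, and without that library the log2 fold change was 1.41 ± 0.39 and called higher. The direction of Scd1 therefore depended on the library left out, and the log2 fold change was -0.06 without control 1. Scd1 and Scd2 are close in sequence too, so reads may be shared between them. The 7 genes listed as adipocyte markers summed to 128, 137 and 188 CPM in the controls and 206 and 203 CPM in the mutants. Control 3 was the highest control, and both mutants lay above it. Nearly all of this sum came from Cidec, Fabp4 and Pparg. Cidec, a lipid droplet gene and the largest of them, was at 82.7, 75.0 and 123 CPM in the controls and 141 and 134 CPM in the mutants. Fabp4 was at 29.6, 42.8 and 45.9 CPM against 47.0 and 50.9 CPM, and Pparg at 16.1, 18.7 and 18.6 CPM against 17.9 and 17.8 CPM. Adipoq had no count, and Plin1, Cfd and Lep had 0 to 2 counts in each library. The sum can therefore not be read as adipocyte content. The part of adipocytes in the levels of Scd1 and Scd2 was not tested.

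**Figure D3:**
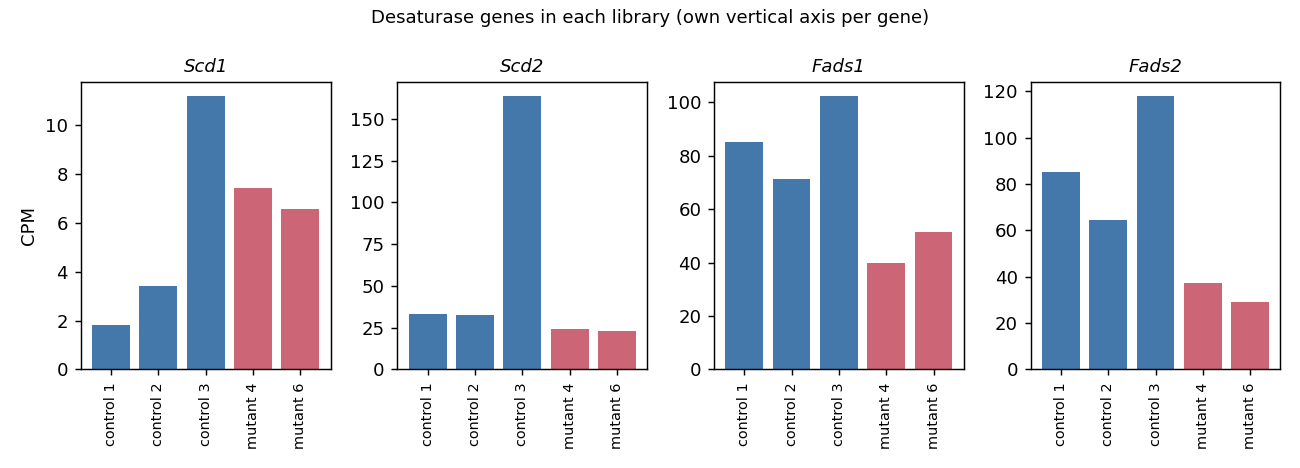
CPM of the 4 desaturase genes, 1 bar per library, with the 3 controls in blue and the 2 mutants in red, and an axis of its own for each gene. For Fads1 and Fads2 both mutants stand below every control, and for Scd1 and Scd2 control 3 stands above all other libraries.

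In fatty acid synthesis, 2 of 3 members were called lower, with a median log2 fold change of -0.67. Fasn, the synthase that builds palmitate, had 90.1, 60.7 and 71.7 CPM in the controls and 43.9 and 49.2 CPM in the mutants. Both mutants were below all controls, and the log2 fold change of -0.67 ± 0.17 was not called without control 1 (-0.51), without mutant 4 or without mutant 6. Acaca, the carboxylase that makes malonyl-CoA, had 14.6, 19.2 and 18.1 CPM in the controls and 10.5 and 10.5 CPM in the mutants. Its groups were separate at -0.72 ± 0.21, but the call held in only 4 of 15 alternative settings and was lost whichever library was left out. Acly, which splits citrate into the acetyl-CoA that feeds both fatty acid and sterol synthesis, was level, with 65.8, 71.3 and 70.5 CPM in the controls and 66.1 and 71.9 CPM in the mutants. Its log2 fold change was -0.0040 ± 0.13. The elongases were level as well. Elovl6, which extends palmitate, had 197, 205 and 206 CPM in the controls and 194 and 192 CPM in the mutants, with a log2 fold change of -0.07 ± 0.12. Elovl5, which extends polyunsaturated chains, had 43.3, 42.6 and 45.1 CPM in the controls and 43.9 and 45.4 CPM in the mutants, with a log2 fold change of 0.03 ± 0.14.

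Set side by side, cholesterol synthesis (16 tested members, 3 called lower) had a median log2 fold change of -0.22, desaturation (4 members, 2 called lower) one of -1.17, and fatty acid synthesis (3 members, 2 called lower) one of -0.67. Control 3 set the order of the last pair: without it, the median of desaturation was -0.62 and that of fatty acid synthesis -0.69. Summed over members, cholesterol synthesis stood at 401, 427 and 443 CPM in the controls and 348 and 343 CPM in the mutants. The desaturases summed to 205, 172 and 395 CPM and to 109 and 110 CPM. Fatty acid synthesis summed to 171, 151 and 160 CPM and to 121 and 132 CPM. Each of these sums was lower in both mutants than in every control. The elongase sums were also lower, by a small margin, at 241 to 251 CPM in the controls and 238 CPM in either mutant. Within the cholesterol chain the called members were spread over the route (Acat2 and Pmvk early, Nsdhl late). Of the members between Pmvk and Nsdhl, none was called: Mvd, Fdps, Fdft1, Sqle and Tm7sf2 overlapped between the groups, Idi1 and Cyp51 had both mutants below all controls, and Lss had both above. This holds for the listed members only, since Lbr, a sterol reductase outside the list, was called lower at a log2 fold change of -0.61. No test of the difference between the member groups was made, since the members were chosen on this contrast.

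The promoters of the members are shown next because SREBPs bind sterol regulatory elements together with NF-Y and Sp1, which bind CCAAT boxes and GC boxes. Members that were called and members that were not called can be set side by side. RefSeq's promoter table for GRCm38.p6 gave windows for 24 of the 31 members, with none used here for Fdps, Fdft1, Sqle, Stard4, Scd1, Scd2 and Fads1. In 21 of the 24, the bases just after the start matched the opening of an annotated transcript of the same gene. The windows without such a match were kept in the counts below. The sequences run 5′ to 3′ along the gene up to the base before the transcription start, cut to the stretch free of annotated exons, which shortened Nsdhl alone of those printed. Capitals mark matches on either strand to TCACNCCAC (sterol regulatory element), CACGTG (E-box), CCAAT (NF-Y box) and GGGCGG (GC box). Nsdhl (chrX:72918412-72918520 on the plus strand) and Fasn (chr11:120824548-120824797 on the minus strand) are members called lower, Ebp (chrX:8193513-8193762 on the minus strand) and Acly (chr11:100528001-100528250 on the minus strand) members that overlapped, and Hmgcs1 (chr13:119690101-119690350 on the plus strand) the only member with a match to the sterol regulatory element.
Nsdhl: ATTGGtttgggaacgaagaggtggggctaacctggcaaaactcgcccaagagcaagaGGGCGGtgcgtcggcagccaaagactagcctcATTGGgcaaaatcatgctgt
Fasn: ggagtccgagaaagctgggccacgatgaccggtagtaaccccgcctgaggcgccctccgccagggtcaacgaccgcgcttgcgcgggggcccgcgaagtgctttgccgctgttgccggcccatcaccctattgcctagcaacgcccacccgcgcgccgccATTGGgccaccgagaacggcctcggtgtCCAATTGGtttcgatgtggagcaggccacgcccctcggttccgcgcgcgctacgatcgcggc
Ebp: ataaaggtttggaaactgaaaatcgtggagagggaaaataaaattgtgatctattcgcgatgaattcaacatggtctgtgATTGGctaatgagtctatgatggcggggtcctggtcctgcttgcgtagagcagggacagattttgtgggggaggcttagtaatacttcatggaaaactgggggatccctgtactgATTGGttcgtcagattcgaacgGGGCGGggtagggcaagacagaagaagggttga
Acly: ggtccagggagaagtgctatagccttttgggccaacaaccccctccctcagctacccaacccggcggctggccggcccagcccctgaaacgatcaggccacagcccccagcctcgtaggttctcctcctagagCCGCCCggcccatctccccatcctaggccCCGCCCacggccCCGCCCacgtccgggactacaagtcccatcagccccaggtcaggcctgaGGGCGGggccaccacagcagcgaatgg
Hmgcs1: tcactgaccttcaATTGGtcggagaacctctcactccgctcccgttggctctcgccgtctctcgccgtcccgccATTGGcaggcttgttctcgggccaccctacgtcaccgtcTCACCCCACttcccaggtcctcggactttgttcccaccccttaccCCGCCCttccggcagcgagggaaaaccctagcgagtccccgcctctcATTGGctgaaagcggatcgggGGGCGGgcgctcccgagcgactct
The Nsdhl stretch of 109 bases holds 2 NF-Y boxes and 1 GC box, and the Ebp stretch holds the same numbers in 250 bases. Fasn has 3 NF-Y boxes, of which 2 overlap on opposite strands, and no GC box with these letters, whereas Acly has 4 GC boxes and no NF-Y box. The counts over all members were made on the full 250 bases before the start, exons included. An NF-Y box was present in 18 of the 24 members (75.0%), against 37.5% of all 27025 genes in the table and 40.2% of the 10262 tested genes with a window. A GC box was present in 19 members (79.2%), against 35.4% of all genes and 61.0% of tested genes. An E-box was present in 6 of the 24 members, namely Hsd17b7, Sc5d, Dhcr7, Insig1, Scap and Elovl5, against 6.86% of all genes and 9.69% of tested genes. The sterol regulatory element was present in 1 (4.17%), against 1.22% and 1.27%. On the stretches cut to be free of exons, the members with a match numbered 14 for the NF-Y box, 15 for the GC box, 4 for the E-box (without Dhcr7 and Scap) and 1 for the sterol regulatory element. Of the 6 called members with a window, 3 had an NF-Y box and 3 a GC box, against 15 and 16 of the 18 others. Those others are all members without a call and did not all stay level. They include Hmgcs1, which was not tested. They also include Mvk, Idi1, Cyp51, Dhcr7, Srebf2, Elovl6 and Lss, whose groups did not overlap. These are matches of letters in a short window, and a window without a match says nothing of whether a factor binds.

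Genes of the same and neighbouring pathways outside the list were taken from 5 further lists of 104 genes. Of the 93 tested, 10 were called higher and 7 lower (7.53%), with a median log2 fold change of 0.02. Over all 14572 genes tested, 6.11% were called higher and 4.17% lower. Nothing about a list is read from a count near these shares. Among 17 tested genes of sterol and isoprenoid synthesis, 3 fell, of which Lbr and Pdss1 are given here as log2 fold changes. Lbr, a sterol reductase of the nuclear envelope, stood at -0.61 ± 0.14 (edgeR adjusted p = 0.0117). Pdss1, which makes the tail of ubiquinone, stood at -0.58 ± 0.15 (edgeR adjusted p = 0.0231). Lbr was not called without mutant 4 or without mutant 6, and Pdss1 was also lost without control 1 or control 2. The groups of Msmo1, the oxidase that precedes Nsdhl, overlapped at -0.15 ± 0.25.

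Of 18 genes of the SREBP pathway and sterol uptake, 4 rose and 2 fell by these calls, against 6.11% and 4.17% of all genes tested. Npc1l1, the carrier that takes up cholesterol from the gut lumen, rose most firmly, from 289.6 ± 34.8 CPM (SD, n = 3) to 560.3 ± 73.3 CPM (SD, n = 2), or 0.95 ± 0.14 on the log2 scale (edgeR adjusted p = 0.000889). That call held with any 1 library left out. Scarb1, a lipoprotein receptor, rose too (0.68 ± 0.17, edgeR adjusted p = 0.0230). So did Npc1, which exports cholesterol from lysosomes (0.54 ± 0.13, edgeR adjusted p = 0.0154), and Lmna, the lamin A gene (0.96 ± 0.23, edgeR adjusted p = 0.0154). None of these 3 was called without control 1 or without mutant 4, and Scarb1 and Npc1 were also lost without mutant 6. Mbtps2, the second protease that releases SREBPs, was 1 of the 2 that fell (-0.55 ± 0.15, edgeR adjusted p = 0.0327). That call was lost without control 1, control 3 or either mutant. Insig2, the second INSIG, overlapped between the groups at 0.03 ± 0.19, as Insig1 did. Of 14 tested genes of LXR signalling and of sterol export or esterification, 1 was called higher, against 6.11% of all genes. It was Abca1, the cholesterol exporter (0.68 ± 0.20, edgeR adjusted p = 0.0447). That call was lost whichever library was left out, and the list's median was 0.31.

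Of 25 other tested genes of lipogenesis and fatty acid modification, 1 rose and 2 fell by these calls, against 6.11% and 4.17% of all genes tested. Nothing about the list is read from these counts. Elovl2, an elongase that acts after Fads1 in the polyunsaturated route, was higher in the mutants where Fads1 and Fads2 were lower, with 3.69, 2.01 and 3.52 CPM in the controls and 14.95 and 7.48 CPM in the mutants. On the log2 scale it rose by 1.86 ± 0.36 (edgeR adjusted p = 0.00485), and the call was lost without mutant 4. Tecr, the reductase that completes each round of elongation, fell (-0.64 ± 0.15, edgeR adjusted p = 0.0145), a call lost without control 1 or mutant 4. Acss2, which makes acetyl-CoA from acetate, fell at -0.71 ± 0.21 (edgeR adjusted p = 0.0426) and was lost whichever library was left out. Acacb, the second acetyl-CoA carboxylase, stood at -0.57 ± 0.21 on the log2 scale (edgeR adjusted p = 0.112) and was not called. Me1, which supplies NADPH, stood at 0.21 ± 0.15 and was not called. Of 19 tested genes of glycerolipid synthesis and lipid droplets, 4 rose, against 6.11% of all genes tested. Dgat2, which makes triglyceride, rose by 0.81 ± 0.14 on the log2 scale (edgeR adjusted p = 0.00252). It had 524, 635 and 524 CPM in the controls and 913 and 1052 CPM in the mutants, and its call held with any 1 library left out. The droplet coat genes Plin2 (0.60 ± 0.16, edgeR adjusted p = 0.0331) and Plin3 (0.59 ± 0.14, edgeR adjusted p = 0.0172) rose as well. Pnpla3, a lipase-like gene at under 2 CPM in every library, had the largest fold change (2.14 ± 0.60, edgeR adjusted p = 0.0381). Plin2 was lost without control 1, control 2 or either mutant, Plin3 without control 1 or mutant 6, and Pnpla3 in 10 of 15 alternative settings. The list's median was 0.25. The 13 absorptive enterocyte markers, which include lipid-handling genes of the villus, had a median of 0.48, and the part of enterocyte content in these differences was not tested.

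**Figure D4:**
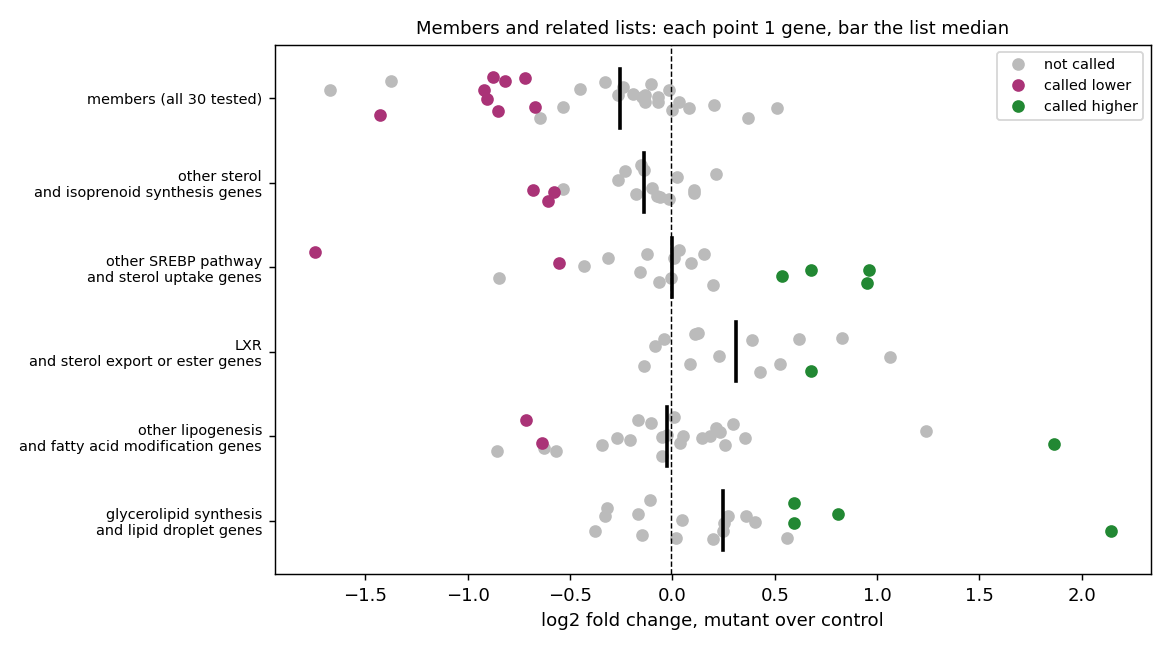
Log2 fold change, mutant over control, of the 30 tested members and of the tested genes of 5 related lists, 1 point per gene, with the list median as a bar and coloured points for genes called by edgeR. Called genes of the members and of the other sterol synthesis genes lie below 0, and those of the glycerolipid list above 0.

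Other gene groups moved with the contrast in the same libraries. Of 22 proliferation genes, 14 were called lower and 1 higher, with a median log2 fold change of -0.68, a list not independent of the choice of Ki67-negative areas. Of 16 genes of the ATF4 stress response, 8 were called higher and 1 lower, with a median of 0.64. Over all genes tested, 6.11% were called higher and 4.17% lower. The part of proliferation and of the stress response in the members' levels was not tested.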

How the data were processed

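RNA from laser-captured cells (2.3 to 33.3 ng) was amplified and sequenced as single 100 bp reads, per the labels' protocols. The authors deposited raw counts per transcript for 28644 rows and, in a separate table, FPKM values per transcript, whose relation to the counts is not stated. The submitters' processing notes name mm9 and edgeR, and no source used here names the aligner or the counting tool. Samples were grouped by genotype label: 3 controls and 2 mutants. Counts were fitted with edgeR 4.0.16 in R 4.3.3 (filterByExpr, TMM, quasi-likelihood F-test, 3 residual degrees of freedom), and p-values were Benjamini-Hochberg adjusted over the 19353 rows tested. For each gene the row with the highest mean count was read out (14572 genes), and the standard error is the log2 fold change over the square root of F. The fit was tested on simulated data. The reference was GRCm38.p6, another build than mm9, and was used for names and promoter sequences only.

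The members and all lists were chosen with earlier results of these data known. Members were named by step, with every library's value where the groups did not overlap and for all genes of sensing, desaturation, elongation and fatty acid synthesis; related genes were named where called, plus 1 or more defining genes per list. Library values of Ebp and Sqle were added after they were seen. Some genes of the related lists are counted but not reported here by name. Alternatives were RLE or upper-quartile scaling, no filter or a CPM of at least 5 in 2 libraries, 1 row per gene, DESeq2 1.42.0, limma-voom (limma 3.58.1), limma on log2(FPKM + 1), log2(FPKM + 0.1) or genes with a mean of at least 1 FPKM, and leaving out each library.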

Additional observations from a re-analysis of the deposited data

How the results depend on the processing

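With 3 controls and 2 mutants, and areas that differ in genotype, proliferation state and sex-linked transcripts together, these differences belong to 5 libraries, and leaving out 1 mutant leaves 1 library that is assumed to vary as the controls do. No paired analysis was possible because the replicate numbers of the controls and of the mutants do not overlap. No result changed direction past its threshold under the 15 alternatives. Over the members and the related genes named, 616 values kept their side of the threshold, 135 lost the call and 9 gained it. The 616 include values of genes not called that turned in direction, such as Fdft1, Tm7sf2 and Scd1 with 1 library left out. In limma on FPKM with a pseudocount of 1, a pseudocount of 0.1 and a minimum mean of 1 FPKM, the calls over the whole table were 97, 155 and 258 higher and 13, 36 and 131 lower, those among the members 0, 1 and 3 lower, and those among the 5 related lists 0, 1 and 1 higher and 0, 0 and 0 lower. The fatty acid synthesis median was -0.42 with a pseudocount of 1 and -0.42 with the minimum mean. With no filter on low counts, 935 genes were called lower over the whole table. With each library left out in turn, the whole table gave 408 to 1057 genes higher and 170 to 645 lower, the members 0 to 1 higher and 3 to 9 lower, and the related lists 3 to 11 higher and 1 to 7 lower, with the lowest counts of lower calls without mutant 4. The fatty acid synthesis median then ranged from -0.72 to -0.51, that of cholesterol synthesis from -0.27 to -0.15 and that of desaturation from -1.31 to -0.62, the last without control 3. The cause of these shifts was not tested.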
